A study of Mus musculus with 54 samples.

Results

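The genes that copy the genome and divide the cell were followed in mouse peritoneal macrophages through polarization and siRNA knockdown. They were chosen by symbol, 27 genes of DNA replication and 15 genes of mitosis, and all 42 were found among the 39179 gene identifiers of the deposited counts. The RNA came from adult C57BL/6 mice whose peritoneal exudate macrophages had been elicited with thioglycolate and purified by adherence. In the polarization experiment, 3 mice each gave macrophages without stimulus (M0), with LPS at 100 ng/ml plus IFNγ at 50 ng/ml (M1-like) or with IL-4 at 10 ng/ml (M2-like) for 24 h, sequenced in 2 technical replicates that were summed to 9 samples. In the reprogramming experiment, 12 conditions had 3 libraries each. Among them were M0, M1-like and M2-like macrophages that had not been transfected, the same 3 states treated with the transfection reagent alone (mock), and M2-like macrophages transfected with a negative control siRNA pool, with a pool against E2f1, Myc, Pparg or Stat6, or with all 4 pools combined (the iM1 macrophages of the study). Transfection followed 24 h of polarization, IL-4 was absent afterwards, and the transfected and mock-treated cells were harvested 48 h after it. The harvest time of the untransfected libraries of this experiment is not given separately. The paper names 24 h after polarization for profiles without transfection, without saying whether these libraries are meant. All animals were wild type, the knockdowns were transient, and the labels of the reprogramming experiment do not say whether its 3 libraries per condition came from separate animals, so that its p-values measure the spread between these libraries only.

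Replication starts where the origin recognition complex, Cdc6 and Cdt1 load the ring of MCM proteins onto DNA, and Cdc45 and GINS turn this ring into an active helicase. The clamp Pcna, placed by replication factor C, then holds the polymerases on the template while Fen1 and Lig1 join the fragments of the lagging strand. Later in the cycle, cyclin A2 and the B cyclins with Cdk1, the Aurora and Polo kinases, the spindle motor Kif11 and the checkpoint proteins Bub1, Bub1b and Cdc20 drive and guard the separation of the chromosomes. Most replication genes are known targets of E2F factors, many mitosis genes are controlled through a CHR element near their start, Myc promotes entry into the cycle, and elicited macrophages divide little, although IL-4 can make macrophages of the body cavities proliferate.

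The promoters of 34 members were found in RefSeq sequence of GRCm38.p6, each as a window from 250 bases before to 50 after the start. The E2F letters were TTCCCGC, the same word with a different centre (TTCGCGC), and the related words TTGCCGC as well as TTGGCGC, all searched on both strands. They stood in 14 of 22 replication windows (63.6%) and in 3 of 12 mitosis windows (25%), against 9.69% of all 27025 windows. The CHR letters TTTGAA or TTCGAA stood in 22.7% of the replication and in 83.3% of the mitosis windows, against 19.4% of all windows. CCAAT was found in 63.6%, 91.7% and 37.9% of the replication, mitosis and all windows, and the E-box CACGTG in 4.55%, 0% and 7.24%. The 2 lists thus carried different letters at their starts, which says nothing about which factor was bound in these cells. No E2F letters stood in the windows of Mcm2, Mcm10, Cdc45, Pcna, Rfc5, Lig1, Fen1 and Ccne1, and no CHR letters in those of Birc5 and Ccnb1. The 250 bases before the start are given, 5′ to 3′, for 6 members with the letters, chosen among those named in the results on the helicase, the primase complex and mitosis. Capitals mark the E2F letters of Mcm5, chr8:75109259-75109508 (+ strand), Mcm6, chr1:128359706-128359955 (- strand), and Pola1, chrX:93632156-93632405 (- strand), and the CHR letters of Top2a, chr11:99024190-99024439 (- strand), Cdc20, chr4:118437344-118437593 (- strand), and Kif11, chr19:37376132-37376381 (+ strand).
Mcm5: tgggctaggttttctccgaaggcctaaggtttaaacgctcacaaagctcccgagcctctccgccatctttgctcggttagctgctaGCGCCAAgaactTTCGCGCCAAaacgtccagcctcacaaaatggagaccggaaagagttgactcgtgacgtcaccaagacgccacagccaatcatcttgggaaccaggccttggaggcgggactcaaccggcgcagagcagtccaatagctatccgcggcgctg
Mcm6: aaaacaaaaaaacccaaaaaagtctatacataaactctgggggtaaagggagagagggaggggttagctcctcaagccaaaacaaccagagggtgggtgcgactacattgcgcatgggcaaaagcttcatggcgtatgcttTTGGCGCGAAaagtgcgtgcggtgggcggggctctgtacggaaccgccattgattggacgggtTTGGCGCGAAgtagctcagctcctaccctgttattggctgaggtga
Pola1: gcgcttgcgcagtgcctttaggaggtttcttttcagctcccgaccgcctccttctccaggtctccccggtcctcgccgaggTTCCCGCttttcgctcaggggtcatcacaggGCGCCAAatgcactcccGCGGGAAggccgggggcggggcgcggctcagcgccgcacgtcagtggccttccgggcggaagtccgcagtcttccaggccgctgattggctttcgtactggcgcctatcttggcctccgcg
Top2a: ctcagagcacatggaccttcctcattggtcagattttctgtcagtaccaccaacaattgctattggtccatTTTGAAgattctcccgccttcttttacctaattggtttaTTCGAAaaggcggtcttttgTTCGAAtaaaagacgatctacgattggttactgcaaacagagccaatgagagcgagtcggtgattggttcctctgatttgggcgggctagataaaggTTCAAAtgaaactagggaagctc
Cdc20: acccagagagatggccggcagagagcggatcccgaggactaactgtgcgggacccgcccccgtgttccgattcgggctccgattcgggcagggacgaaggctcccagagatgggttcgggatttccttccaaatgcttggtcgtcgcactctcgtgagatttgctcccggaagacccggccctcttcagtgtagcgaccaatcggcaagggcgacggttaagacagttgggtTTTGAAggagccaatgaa
Kif11: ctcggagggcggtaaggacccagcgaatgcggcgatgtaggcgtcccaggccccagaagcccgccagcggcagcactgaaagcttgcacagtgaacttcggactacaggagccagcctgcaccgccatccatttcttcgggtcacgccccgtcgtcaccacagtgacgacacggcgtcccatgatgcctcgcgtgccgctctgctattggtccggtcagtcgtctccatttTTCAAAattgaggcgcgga
The E2F letters overlapped each other in Mcm5 and Mcm6, so that 3 and 4 matches appear as fewer blocks. In Cdc20 and Kif11 the single CHR match began 18 and 19 bases before the start.

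The libraries held 13421854 to 29880494 reads assigned to genes, and all 42 members passed the filter on low counts in both experiments, among 16110 and 14172 genes tested. Reads were scarce for many members. In M0 macrophages of the polarization experiment 7 of the 15 mitosis genes had a mean under 1 CPM, and in untransfected M1-like macrophages of the reprogramming experiment Pole was counted with a single read in 1 library. The exons of 12 members overlap a gene on the opposite strand, and since the strand setting of the counting is not given in the sources used here, the values of Mcm7, Orc1, Cdc45, Gins2, Rfc4, Rfc5, Pole, Lig1, Fen1, Ccne2, Ccna2 and Cdc20 are uncertain to that extent. The gene opposite Cdc20 (Elovl1) had 97.8 times and the one opposite Ccna2 (Exosc9) 14.2 times the counts of the member. The macrophage markers summed to between 10280 and 17380 CPM in the polarization and between 6211 and 18320 CPM in the reprogramming experiment. None of them was at 0. Their mean sum was 16780 CPM in M0 and 10810 CPM in M1-like macrophages at 24 h. It was 16670 and 7033 CPM without transfection and 14410 and 6736 CPM after mock treatment. Of the 7 markers, 3 were lower and 3 higher in M1-like macrophages at 24 h. Without transfection 5 were lower and 0 higher, and after mock treatment 6 and 1. In the reprogramming experiment, the highest sum of the neutrophil markers was 13.4 CPM, of the eosinophil markers 46.1, of the mast cell markers 9.86, of the B cell markers 35.7, of the T and NK cell markers 5.43 and of the dendritic cell markers 6.80. The B cell markers summed to 5.91 to 10.5 CPM in M0 and 5.35 to 5.77 CPM in M1-like macrophages at 24 h, and all 6 were lower in the M1-like macrophages of the reprogramming experiment, without transfection (9.55 to 33.4 against 0.733 to 1.47 CPM) and after mock treatment. The eosinophil markers summed to 15.6 to 16.99 and 0.271 to 0.817 CPM in M0 and M1-like macrophages at 24 h and to 16.1 to 24.4 and 0.611 to 1.703 CPM without transfection. For the mast cell markers these sums were 2.32 to 4.602 and 2.22 to 3.08 CPM at 24 h and 2.32 to 4.41 and 0.189 to 1.07 CPM without transfection. The 7 markers of mesothelial cells and fibroblasts, cells that can divide in culture, summed to 19.4 to 32.3 CPM in M0 and 4.75 to 7.41 CPM in M1-like macrophages at 24 h, and to between 19.1 and 435 CPM in the reprogramming experiment. Collagen genes made up most of these sums, Upk3b was at 0 in all M1-like samples at 24 h, Krt19 was at 0 in all untransfected M1-like libraries, and all 4 of these markers with enough counts at 24 h and all 6 in the reprogramming experiment were below M0 in the M1-like macrophages. The part of all these markers in the results on the members was not tested.

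Pcna dominated the replication list. Per kilobase of exon it had 63.1 CPM in M0 macrophages at 24 h, followed by Cdt1 with 10.3 and Mcm3 with 9.07, and its reads made up 38.1% of the summed CPM of the 27 genes. Bub1b with 1.60 and Tpx2 with 1.51 CPM per kilobase led the mitosis list in the same samples, and Ccnb1 with 0.130 was its lowest member. The summed level of the replication genes was 405, 395 and 394 CPM in M0 and 350.0, 365 and 366 CPM in M1-like macrophages at 24 h. All M1-like samples lay below all M0 samples. The mitosis genes summed to 32.8, 36.4 and 33.3 CPM in M0 and 48.3, 54.6 and 52.97 CPM in M1-like macrophages, and here all M1-like samples lay above. Tpx2 and Mki67 made up most of the M1-like sum. They were also the only mitosis genes called higher in this comparison, so that a sum without them was bound to lean lower. The other 13 mitosis genes summed to 21.5, 22.6 and 21.1 CPM in M0 and 9.24, 8.89 and 8.47 CPM in M1-like macrophages. The turned order shows only that the higher total rested on Tpx2 and Mki67. In bulk RNA, fewer dividing cells and less RNA of these genes per cell cannot be told apart.

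**Figure D1:**
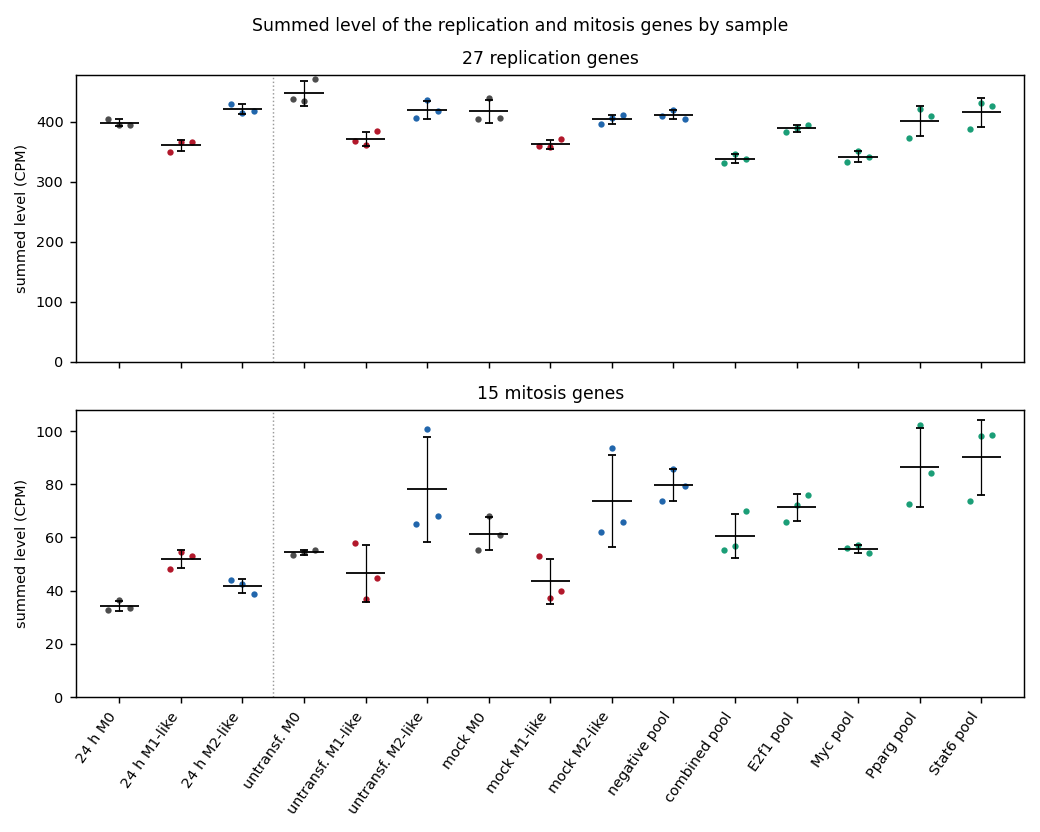
Summed CPM (y axis, linear from 0) of the 27 replication genes (top) and the 15 mitosis genes (bottom) in each sample of the 15 conditions (x axis), with points for samples, horizontal lines for means and bars for the SD of 3 samples. The dotted line separates the experiments. Replication sums of the Myc and combined pools lie between 332 and 351 CPM, below those of the negative pool, and replicate 2 stands above the other two in untransfected and mock M2-like macrophages for mitosis.

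At 24 h, LPS and IFNγ lowered most of the helicase and raised cyclin E. Compared to M0, 14 of the 27 replication genes were lower and 8 higher in M1-like macrophages (edgeR's quasi-likelihood test, adjusted p-value under 0.05), where 37.5% of all genes tested were lower and 35.4% higher. The lower share (51.9%) was thus above that of all genes and the higher share (29.6%) below it. The median log2 fold change was -0.30 over the list and -0.04 over all genes. Of the MCM ring, Mcm2, Mcm3, Mcm5, Mcm6 and Mcm7 fell, while Mcm4 had a log2 fold change of 0.00 (SE 0.07). Mcm2 had 11.9, 11.5 and 11.5 CPM in the M0 and 3.27, 3.58 and 3.95 CPM in the M1-like samples of the 3 mice (log2 fold change -1.69, SE 0.10, adjusted p = 9.62e-09). Mcm6 had 41.5, 41.2 and 40.3 CPM in M0 and 16.8, 17.8 and 18.7 CPM in M1-like macrophages (log2 fold change -1.21, SE 0.06, adjusted p = 4.02e-09). For both genes the M1-like samples lay far below the M0 samples, whereas Mcm5, with 9.22, 8.93 and 7.96 against 6.81, 7.05 and 7.39 CPM, separated by a narrow margin (log2 fold change -0.30, SE 0.09, adjusted p = 0.00987). The helicase activators Cdc45, at 3.08, 4.18 and 3.75 CPM in M0 and 1.16, 1.51 and 0.978 CPM in M1-like macrophages (log2 fold change -1.60, SE 0.18, adjusted p = 5.83e-06), and Gins1 (-1.54) fell together with the licensing factors Cdt1 (-0.95) and Orc1 (-0.71). Pola1 (-0.74), Pole (-0.63) and Pold1 (-0.60), the catalytic subunits of 3 replicative polymerases, and the ligase Lig1 (-0.33) and the clamp loader subunit Rfc4 (-0.33) fell as well.

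The rise of Ccne1, the cyclin that takes cells from G1 into S phase, was larger than that of any other member at 24 h. Its level was 1.82, 1.68 and 1.89 CPM in the M0 and 28.6, 33.4 and 43.3 CPM in the M1-like samples. The lowest M1-like sample thus stood many times above the highest M0 sample (log2 fold change 4.29, SE 0.16, adjusted p = 2.09e-10). Ccne2, the gene of the other E cyclin, had 0.6003, 0.895 and 1.08 and 1.62, 1.53 and 1.498 CPM, low levels that did not overlap (log2 fold change 0.84, SE 0.24, adjusted p = 0.00713). Rfc3, another subunit of the clamp loader, rose from 8.604, 7.83 and 7.61 to 14.6, 17.5 and 18.1 CPM (log2 fold change 1.07, SE 0.10, adjusted p = 1.09e-06). The other higher members were Uhrf1 (0.95), which couples DNA methylation to replication, the replication factor Mcm10 (0.91), the single-strand binding subunit Rpa2 (0.75), Rfc5 (0.49) and Gins2 (0.44). Pcna was level, with 153, 147 and 155 CPM in M0 and 149, 152 and 142 CPM in M1-like macrophages (log2 fold change -0.04, SE 0.06, adjusted p = 0.6), and its samples overlapped. The loader subunits Rfc3 and Rfc4 and the GINS subunits Gins1 and Gins2 therefore moved in opposite directions. The values of Rfc4 and Gins2 are uncertain, because the genes opposite them (Eif4a2 and Gse1) had 55.3 and 8.72 times their counts. Leaving out 1 sample at a time gave 12 to 13 lower and 8 higher replication genes.

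Of the mitosis genes, 8 of 15 (53.3%) were lower and 2 (13.3%) higher at 24 h, against 37.5% and 35.4% of all genes, with a median log2 fold change of -0.80. Top2a, the topoisomerase that untangles chromosomes, had 4.48, 4.03 and 3.92 CPM in M0 and 0.648, 0.869 and 0.645 CPM in M1-like macrophages (log2 fold change -2.52, SE 0.17, adjusted p = 6.32e-08). Kif11, the motor that pushes the spindle poles apart, had 1.16, 1.46 and 1.14 and 0.324, 0.383 and 0.2497 CPM (log2 fold change -1.98, SE 0.22, adjusted p = 5.87e-06). Bub1b, a kinase-like protein of the spindle checkpoint, had 6.203, 6.97 and 7.37 and 1.62, 2.02 and 1.89 CPM (log2 fold change -1.89, SE 0.12, adjusted p = 2.17e-08). None of these 3 genes had an M1-like sample within the M0 range. Aurkb (-1.81), Cdc20 (-1.35), Ccna2 (-1.29), Cdk1 (-1.17) and Plk1 (-0.80) were the other lower members. Against them, Tpx2, which activates Aurora A on the spindle, rose from 6.58, 7.24 and 7.33 to 29.02, 32.5 and 32.4 CPM (log2 fold change 2.15, SE 0.08, adjusted p = 1.31e-10). Mki67, the coat protein of mitotic chromosomes that is used as a mark of dividing cells, rose from 4.74, 6.49 and 4.87 to 10.1, 13.2 and 12.1 CPM (log2 fold change 1.13, SE 0.16, adjusted p = 4.25e-05). Mki67 and Top2a, both common marks of proliferation, thus changed in opposite directions in the same samples. Ccnb1 overlapped between the states, with 0.6403, 0.485 and 0.515 and 0.378, 0.588 and 0.478 CPM (log2 fold change -0.18, SE 0.23, adjusted p = 0.525). Requiring at least 10 counts in every sample left 5 lower mitosis genes, because fewer members were tested.

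Other genes of the pathway were read from the same fit. Of 42 other replication genes, 20 (47.6%) were lower and 11 (26.2%) higher in the M1-like state, and of 57 other mitosis genes with enough counts 33 (57.9%) were lower and 4 (7.02%) higher, against 37.5% and 35.4% of all genes. Dut, which keeps uracil out of DNA, fell by 2.67 on the log2 scale (SE 0.16) and the phosphatase Cdc25b by 3.15 (SE 0.14), whereas Timeless of the fork protection complex rose by 2.61 (SE 0.11). Of 21 genes of G1 control, 10 were higher and 7 lower. Cdkn1a, the Cdk inhibitor p21, rose from 80.2, 81.9 and 83.4 to 1222, 1086 and 1003 CPM (log2 fold change 3.75, SE 0.10, adjusted p = 7.54e-12). Cyclin D1, the product of Ccnd1, drives G1 progression, and its gene rose from 4.44, 4.59 and 4.65 to 20.4, 16.6 and 20.1 CPM (log2 fold change 2.06, SE 0.10, adjusted p = 3.08e-09), and Ccnd2 rose by 5.0 (SE 0.22). The transcription factor genes E2f1 and Myc, later targets of the siRNA pools, behaved differently from each other. E2f1 was level at 15.4, 15.3 and 15.5 and 15.5, 14.7 and 16.1 CPM (log2 fold change 0.00, SE 0.08, adjusted p = 0.967), and Myc fell from 9.53, 8.93 and 9.03 to 0.513, 0.664 and 0.728 CPM (log2 fold change -3.83, SE 0.12, adjusted p = 3.49e-11).

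IL-4 changed fewer members at 24 h than LPS and IFNγ, and also fewer of all genes. In M2-like compared to M0 macrophages, 6 replication genes (22.2%) were higher and 2 (7.41%) lower, and 6.67% of the mitosis genes were higher. Of all genes, 13.5% were higher and 14.4% lower. Ccne1 had 2.59, 3.13 and 2.502 CPM in M2-like samples (log2 fold change 0.61, SE 0.18, adjusted p = 0.0235), above its M0 level in all 3 mice and far below its M1-like level. Rfc5 (0.47), Rfc4 (0.44), Mcm5 (0.37), Mcm2 (0.37) and Pola1 (0.34) were also higher. Cdt1 (-0.44) and Lig1 (-0.28) were lower. Pcna reached 181, 162 and 168 CPM, above every M0 sample, but missed the threshold (log2 fold change 0.17, SE 0.06, adjusted p = 0.06). Among the mitosis genes Tpx2 alone was called by edgeR and by DESeq2, with 12.02, 12.8 and 12.97 CPM (log2 fold change 0.84, SE 0.08, adjusted p = 1.54e-05). Mki67 (-0.07), Top2a (0.27) and Ccnb1 (0.17) did not pass the test. The count of higher replication genes fell to 3 without replicate 1 of M0. Over all genes, the M2-like sample of mouse 1 stood apart from those of mice 2 and 3. Its chi-square per gene against counting noise was 87.4 and 96.6, where that between mice 2 and 3 was 5.93. Set directly against M2-like macrophages, M1-like macrophages had 13 lower and 6 higher replication genes (38.1% and 34.6% of all genes) and 7 lower and 2 higher mitosis genes (46.7% and 13.3% of the list). This comparison shares the M1-like samples with the one against M0, and its values included Mcm2 -2.06 (SE 0.10), Gins1 -1.82 (SE 0.20), Ccne1 3.68 (SE 0.15), Top2a -2.79 (SE 0.17) and Bub1b -2.03 (SE 0.12). Mcm5 (-0.67), Pcna (-0.20) and Kif11 (-2.35) were lower, Mki67 (1.2) and Tpx2 (1.31) higher, and Ccnb1 (-0.34, adjusted p = 0.188) was not called.

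**Figure D2:**
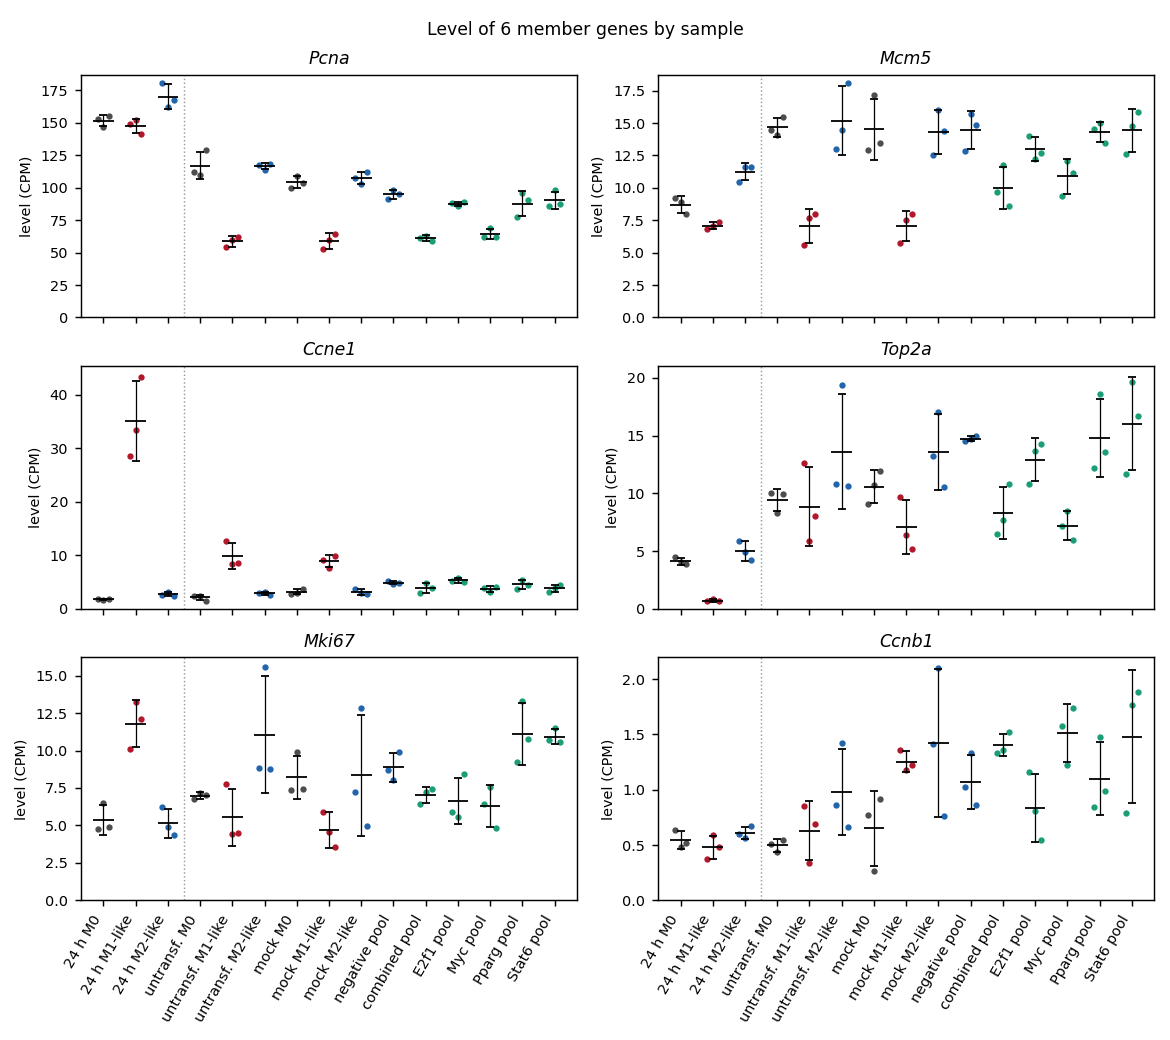
CPM (y axes, linear from 0) of Pcna, Mcm5, Ccne1, Top2a, Mki67 and Ccnb1 in each sample of the 15 conditions (x axis), with points for samples, horizontal lines for means and bars for the SD of 3 samples. Ccne1 reached 28.6 to 43.3 CPM only in M1-like macrophages at 24 h, and Pcna lay between 52.6 and 68.5 CPM in the untransfected and mock M1-like macrophages and in those with the Myc or combined pool of the reprogramming experiment.

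In the reprogramming experiment, M1-like macrophages had less Pcna and Mcm5 than M0. Without transfection, 11 of 27 replication genes were lower and 7 higher, where 28.7% of all 14172 genes were lower and 29.0% higher. Pcna had 112, 109.7 and 129 CPM in M0 and 54.03, 60.04 and 61.8 CPM in M1-like macrophages (log2 fold change -1.0, SE 0.08, adjusted p = 1.38e-12). Mcm5 had 14.5, 14.1 and 15.5 and 5.55, 7.697 and 7.95 CPM (log2 fold change -1.06, SE 0.16, adjusted p = 6.73e-07). In both genes every M1-like library was below every M0 library. Pole, the leading-strand polymerase, had 3.15, 2.48 and 2.73 and 0.0611, 0.8701 and 0.694 CPM (log2 fold change -2.37, SE 0.42, adjusted p = 1.34e-05), the lowest of these values being the single read named above. Mcm10 (-1.37), Gins2 (-0.78), Mcm7 (-0.74), Gins1 (-0.56), Cdt1 (-0.55), Fen1 (-0.54), Cdc45 (-0.48) and Lig1 (-0.41) were lower as well. Ccne1 was again the member with the largest rise, from 2.49, 2.36 and 1.57 to 12.7, 8.43 and 8.52 CPM (log2 fold change 2.21, SE 0.20, adjusted p = 5.38e-11). Prim1, the primase that starts each new strand, rose from 7.25, 6.64 and 6.62 to 14.96, 13.2 and 14.5 CPM (log2 fold change 1.06, SE 0.11, adjusted p = 1.3e-09). Cdc6 (0.99), Pola1 (0.57), Rfc5 (0.35), Rfc3 (0.35) and Mcm2 (0.23) were the other higher members, and primase and polymerase α, which work as 1 complex, rose together.

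Of the mitosis genes, the 5 that were called of 15 were all lower in untransfected M1-like macrophages than in M0 (4 to 5 with 1 library left out). Their share, 33.3%, was near the 28.7% of all genes that were lower. Ccnb2, a cyclin of Cdk1, had 1.54, 0.993 and 0.819 CPM in M0 and 0.244, 0.335 and 0.189 CPM in M1-like macrophages (log2 fold change -2.09, SE 0.43, adjusted p = 0.000122). Cdc20, which activates the complex that ends mitosis, had 2.05, 1.74 and 2.87 and 0.855, 0.469 and 0.631 CPM (log2 fold change -1.74, SE 0.37, adjusted p = 0.000146). Kif11 had 2.42, 2.23 and 2.796 and 1.47, 0.268 and 0.568 CPM (log2 fold change -1.66, SE 0.41, adjusted p = 0.000966). The groups did not overlap in these genes, but M1-like counts were so low that a few reads set the size of the change. Bub1 (-1.54) and Aurka (-0.67) were lower too. Top2a overlapped, with 10.03, 8.31 and 9.96 and 12.6, 5.89 and 8.07 CPM (log2 fold change -0.08, SE 0.26, adjusted p = 0.803), as did Mki67 (log2 fold change -0.33, SE 0.27, adjusted p = 0.307) and Ccnb1 (log2 fold change 0.35, SE 0.48, adjusted p = 0.548). Replicate 1 of the M1-like libraries had the highest value of Top2a, Mki67, Cdk1, Aurkb and Kif11 in its group. The markers of mesothelial cells and fibroblasts summed to 235, 122 and 218 CPM in M0 and 83.8, 27.6 and 77.5 CPM in M1-like libraries, and the B cell markers to 17.5, 33.4 and 9.55 CPM in M0 and 0.733, 1.47 and 1.39 CPM in M1-like libraries. The part of these markers in the values was not tested. Requiring at least 10 counts in every sample left 1 lower mitosis gene, since few of them had that many.

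Mock treatment gave a second set of M0 and M1-like libraries. Of the replication genes 9 (33.3%) were lower and 4 (14.8%) higher, where 30.0% of all genes were lower and 30.3% higher. The lower share was thus near that of all genes. Pcna had 100.1, 109 and 104 CPM in M0 and 52.6, 59.9 and 64.2 CPM in M1-like macrophages (log2 fold change -0.82, SE 0.08, adjusted p = 1.05e-10). Mcm5 (-1.04), Mcm10 (-1.70), Pole (-1.39), Uhrf1 (-1.05), Fen1 (-0.85), Mcm7, Cdt1 and Gins2 were lower, and Ccne1 (1.47), Prim1 (0.92), Pola1 (0.39) and Rfc3 (0.32) higher. Of the mitosis genes 8 (53.3%) were lower and 1 (6.67%) higher. Kif11 had 1.47, 2.74 and 2.81 CPM in M0 and 0.326, 0.442 and 0.406 CPM in M1-like macrophages (log2 fold change -2.57, SE 0.45, adjusted p = 1.19e-05). Ccnb2 had 2.45, 3.06 and 1.76 and 0.272, 0.442 and 0.348 CPM (log2 fold change -2.75, SE 0.35, adjusted p = 4.05e-08), and Cdc20 (-2.08), Ccna2 (-1.69), Bub1 (-1.65), Plk1 (-1.01), Mki67 (-0.82) and Aurka (-0.57) followed in the same direction. Ccnb1 went against them, with 0.771, 0.269 and 0.914 CPM in M0 and 1.36, 1.18 and 1.22 CPM in M1-like macrophages (log2 fold change 0.98, SE 0.40, adjusted p = 0.0369), and Top2a missed the threshold (log2 fold change -0.58, SE 0.26, adjusted p = 0.0558). The lower count was 5 without replicate 2 of mock M0, whose mitosis sum was the highest of its group. The mesothelial and fibroblast markers summed to 185 to 293 CPM in M0 and 19.1 to 38.2 CPM in M1-like libraries, and the B cell markers to 6.79 to 35.7 and 0.979 to 2.41 CPM.

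Over the 3 comparisons of M1-like with M0 macrophages, which have no library in common, 4 replication genes (Cdt1, Mcm5, Mcm7 and Pole) and 2 mitosis genes (Cdc20 and Kif11) were lower each time. Rfc3 and Ccne1 were higher each time. Of all 13648 genes tested in the 3 comparisons, 15.6% were lower and 14.7% higher each time, and these shares were no smaller than the 14.8% and 7.41% of the replication genes and the 13.3% and 0% of the mitosis genes. Of 63 other mitosis genes, 23 (36.5%) were lower and 7 (11.1%) higher without transfection, where 28.7% and 29.0% of all genes were. After mock treatment 31 (49.2%) were lower and 9 (14.3%) higher, where 30.0% and 30.3% of all genes were. Of 42 other replication genes, 7 (16.7%) were lower and 16 (38.1%) higher without transfection and 2 (4.76%) lower and 18 (42.9%) higher after mock treatment. Wdhd1 (1.34), which links the helicase to polymerase α, and Pola2 (1.18), a subunit of that polymerase, were among the higher genes without transfection. Myc had 14.9, 17.6 and 16.9 CPM in M0 and 3.24, 1.47 and 2.96 CPM in M1-like macrophages (log2 fold change -2.67, SE 0.19, adjusted p = 1.38e-13) and Cdkn1a 119, 106 and 107 and 495, 278 and 329 CPM (log2 fold change 1.73, SE 0.16, adjusted p = 8.44e-11). Ccnd1 fell in untransfected M1-like macrophages (log2 fold change -0.68, SE 0.25, adjusted p = 0.0221), the opposite of its change in the polarization experiment.

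**Figure D3:**
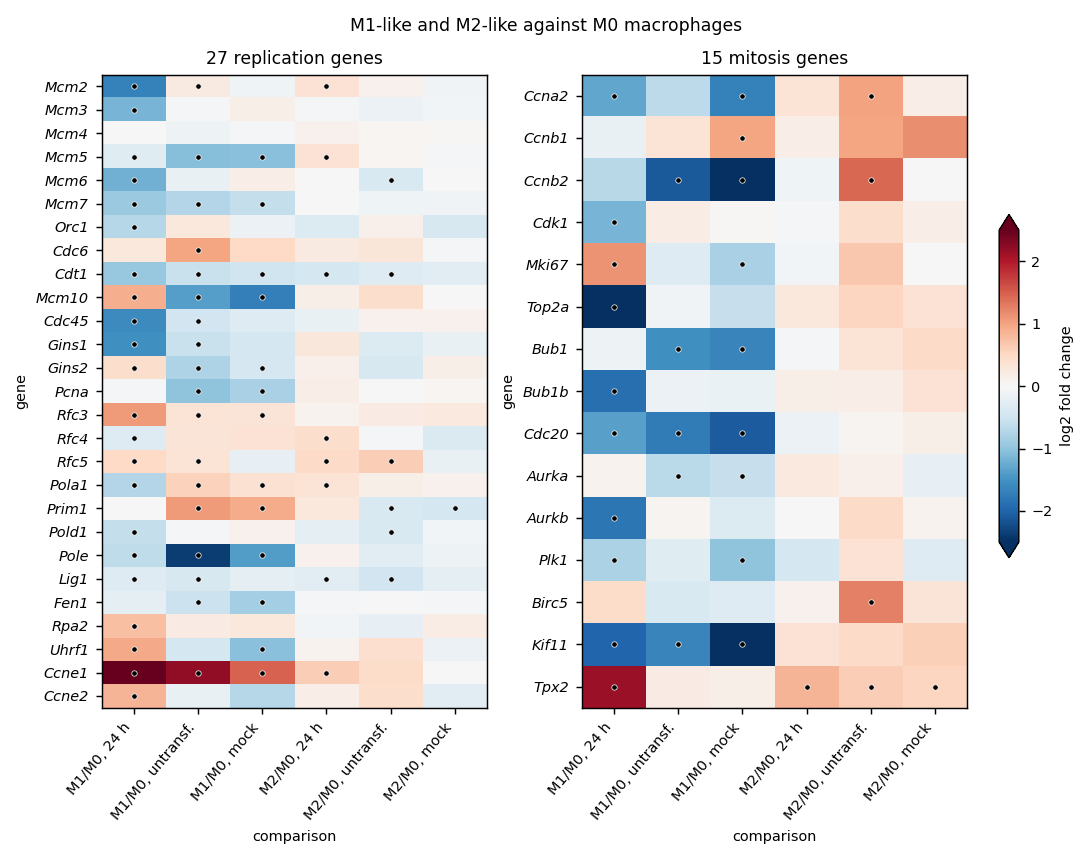
Log2 fold change (colour) of the 27 replication genes (left) and the 15 mitosis genes (right, rows) in 6 comparisons (columns), M1-like and M2-like against M0 at 24 h, without transfection and after mock treatment. A black dot marks an adjusted p-value under 0.05 (edgeR). Ccne1 and Rfc3 are called higher and Mcm5, Mcm7, Cdt1, Pole, Cdc20 and Kif11 called lower in all 3 M1-like comparisons, and the colours beyond 2.5 in either direction are saturated.

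Whether the M1-like change differed between the experiments was tested in 1 edgeR fit over both, a test chosen after the data were seen. The difference passed for 27 of the 42 members, 19 replication and 8 mitosis genes, where 49.0% of 15835 genes passed. The shift was positive (a higher M1-like to M0 ratio in the reprogramming experiment) for 10 replication and 4 mitosis genes and negative for 9 and 4. Of the MCM ring, Mcm3 and Mcm6 fell at 24 h and were not called in the reprogramming experiment (-0.05 and -0.19), and Mcm2, with 16.6, 18.2 and 16.6 CPM in M0 and 20.02, 20.8 and 19.4 CPM in M1-like libraries, was higher without transfection. After mock treatment Mcm2 was not called, with 19.4, 21.1 and 18.4 CPM in M0 and 17.6, 19.2 and 17.99 CPM in M1-like libraries (-0.10, adjusted p = 0.332). Mcm5, Pcna and Pole showed the opposite order, with the larger fall in the reprogramming experiment. Mcm10 and Gins2, up at 24 h, were down there, while Pola1, down at 24 h, was up. Top2a, Aurkb and Bub1b, far below M0 at 24 h, overlapped M0 in the reprogramming experiment. The log2 fold change of Tpx2 was 2.15 (SE 0.08) at 24 h and 0.21 (SE 0.16) in the reprogramming experiment. The experiments also differ in read type, single-end against paired-end, and the harvest time of the untransfected libraries is not given separately. Any difference in time in culture, read type and experiment cannot be told apart.

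**Figure D4:**
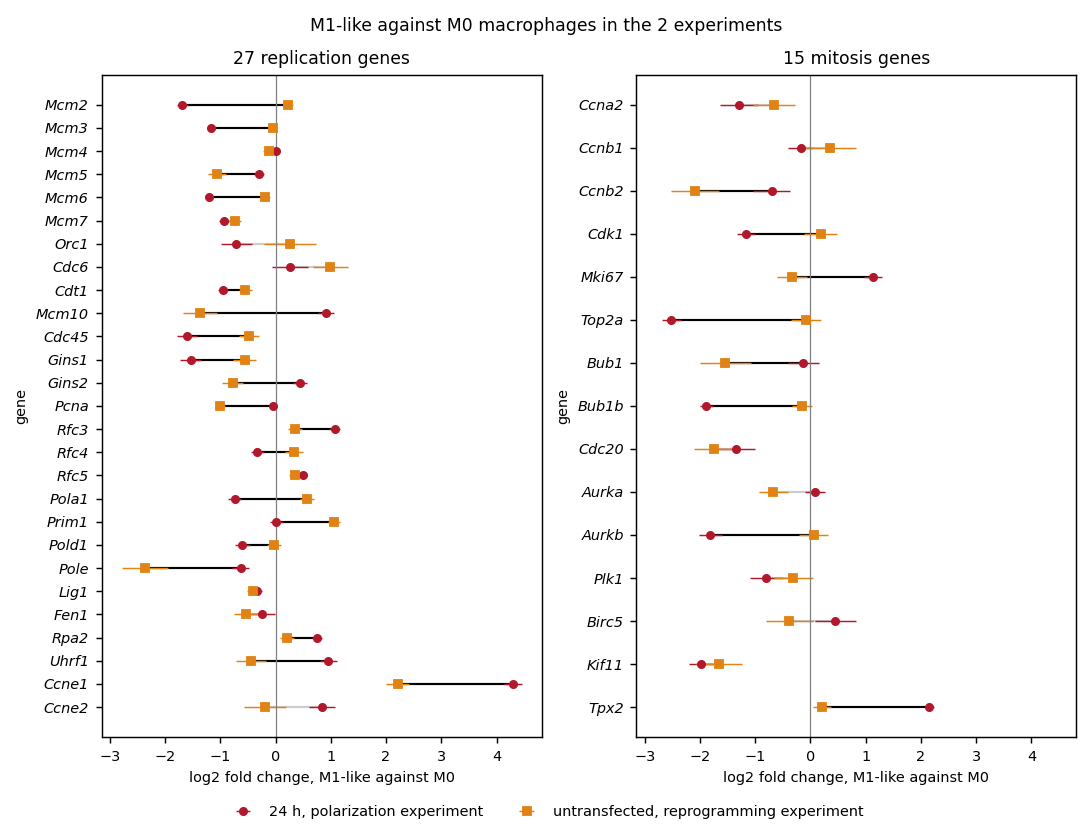
Log2 fold change of M1-like against M0 macrophages (x axis, bars are SE from edgeR) for each replication gene (left) and mitosis gene (right), as circles for 24 h in the polarization experiment and squares for untransfected libraries of the reprogramming experiment. Black lines join values whose difference passed the test and grey lines those that did not. Mcm2 moves from -1.69 to 0.23 and Top2a from -2.52 to -0.08, while Kif11 and Cdc20 stay on the left in both.

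Untransfected M2-like macrophages of the reprogramming experiment had more of some mitosis transcripts than M0. Of 15 mitosis genes, the 4 that were called were all higher, where 10.7% of all genes were higher and 9.19% lower, and all 15 had a positive log2 fold change with a median of 0.48. Ccnb2 had 1.54, 0.993 and 0.819 CPM in M0 and 2.504, 3.87 and 2.65 CPM in M2-like macrophages (log2 fold change 1.44, SE 0.30, adjusted p = 0.000604). Birc5, survivin of the chromosomal passenger complex, had 1.32, 0.993 and 1.09 and 2.504, 2.84 and 2.78 CPM (log2 fold change 1.26, SE 0.36, adjusted p = 0.0134), and Tpx2 7.03, 9.62 and 8.798 and 11.4, 16.1 and 11.6 CPM (log2 fold change 0.62, SE 0.15, adjusted p = 0.00427). In these genes all M2-like libraries were above all M0 libraries. Ccna2 (log2 fold change 1.0, SE 0.33, adjusted p = 0.0295) was called with M2-like values of 2.504, 4.64 and 1.65 CPM. Replicate 2 stood apart, with a mitosis sum of 65.2, 101 and 68.2 CPM over the 3 M2-like libraries, and the mesothelial and fibroblast markers summed to 106, 377 and 184 CPM in the same libraries, with 2 of the 6 markers tested higher than in M0. Without replicate 2 of M2-like or of M0, 2 mitosis genes were higher. Mki67 (log2 fold change 0.67, SE 0.26, adjusted p = 0.0632), Top2a (log2 fold change 0.54, SE 0.26, adjusted p = 0.142) and Ccnb1 (log2 fold change 0.98, SE 0.45, adjusted p = 0.127) did not pass the test.

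The replication genes showed 5 lower and 1 higher member in the same comparison. Rfc5 rose from 11.3, 13.7 and 14.1 to 20.1, 19.1 and 20.8 CPM (log2 fold change 0.61, SE 0.11, adjusted p = 8.82e-05), and Lig1 (-0.47), Pold1 (-0.39), Prim1 (-0.39), Mcm6 (-0.38) and Cdt1 (-0.33) were lower. Pcna (-0.01, adjusted p = 0.969), Mcm5 (0.05, adjusted p = 0.851) and Ccne1 (0.45, adjusted p = 0.178) were not called. The lower count fell to 2 without replicate 1 of M0 or of M2-like and to 3 without replicate 3 of M0 or replicate 2 of M2-like. After mock treatment, with IL-4 absent for the last 48 h, M2-like and M0 macrophages differed in Prim1 (log2 fold change -0.44, SE 0.12, adjusted p = 0.0358) and Tpx2 (log2 fold change 0.53, SE 0.15, adjusted p = 0.0392) alone by edgeR, where 1.64% of all genes were lower and 2.19% higher. There Pcna (0.04), Mcm5 (-0.03), Ccne1 (-0.01), Mki67 (0.01), Top2a (0.36) and Ccnb1 (1.16) were not called. The call of Prim1 was lost by DESeq2 and when replicate 1 or 2 of either group was left out, and that of Tpx2 without any 1 replicate of M0 or without replicate 2 of M2-like. Set directly against M2-like, M1-like macrophages had 9 lower (33.3%) and 5 higher (18.5%) replication genes without transfection, against 30.2% and 31.3% of all genes. After mock treatment 9 (33.3%) were lower and 4 (14.8%) higher, against 29.8% and 30.9% of all genes. The lower shares were thus near those of all genes. Of the mitosis genes, 10 and 9 (66.7% and 60% of the list) were called and all of them were lower. In both comparisons all 6 mesothelial and fibroblast markers tested (median log2 fold change -1.96 and -3.02) and 5 of the 6 B cell markers (median -3.17 and -2.78) were lower too, and their part in the mitosis values was not tested. Ccnb2 (-3.53 and -2.75), Kif11 (-2.13 and -3.15) and Mcm10 (-1.81 and -1.69) fell and Ccne1 (1.76 and 1.47) and Prim1 (1.45 and 1.36) rose in both. Pcna (-0.99 and -0.87), Mcm5 (-1.11 and -1.01), Mki67 (-0.99 and -0.83) and Top2a (-0.62 and -0.93) fell in both as well, and Ccnb1 (-0.63 and -0.19) was not called. The M1-like to M2-like difference itself did not pass the test between mock and untransfected libraries for any member (edgeR and DESeq2 called 0, edgeR also 0 at an unadjusted p-value under 0.05, against 1.13% of all genes called), with differences on the log2 scale for Pcna (0.12), Mcm5 (0.09), Ccne1 (-0.29), Mki67 (0.17), Top2a (-0.32) and Ccnb1 (0.44).

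With the transfection reagent alone, the shares of members called were no larger than those of all genes. In M0 macrophages, 7.41% of the replication genes were lower and 3.7% higher, and 6.67% of the mitosis genes were higher. In M0 macrophages, Mcm6 (log2 fold change -0.30, SE 0.08, adjusted p = 0.0103) and Mcm3 (-0.21) were lower and Rfc5 (log2 fold change 0.56, SE 0.11, adjusted p = 0.000219) and Ccnb2 (log2 fold change 1.14, SE 0.30, adjusted p = 0.00602) higher after mock treatment, where 8.66% of all genes were lower and 11.7% higher. Pcna (-0.16), Mcm5 (-0.01), Ccne1 (0.59), Mki67 (0.24), Top2a (0.17) and Ccnb1 (0.35) were not called. Of the calls of Mcm6 and Mcm3, 1 was lost without replicate 3 of untransfected M0 or replicate 1 or 3 of mock M0, and that of Ccnb2 without replicate 2 of mock M0. In M1-like and M2-like macrophages no member was called by edgeR or DESeq2, and 1 member in each had an unadjusted p-value under 0.05 (0% and 1.77% of all genes were called). The log2 fold changes of mock against untransfected M1-like and M2-like macrophages included Pcna (0.01 and -0.12) and Mcm5 (0.00 and -0.09), and Ccne1 (-0.15 and 0.14), Mki67 (-0.25 and -0.41), Top2a (-0.32 and -0.01) and Ccnb1 (0.97 and 0.53) were not called either. The negative siRNA pool, set against mock M2-like macrophages, raised Ccne1 from 3.78, 2.94 and 2.86 to 5.17, 4.74 and 4.804 CPM (log2 fold change 0.61, SE 0.20, adjusted p = 0.0434) and lowered Bub1b from 8.32, 12.3 and 8.44 to 6.08, 7.74 and 6.23 CPM (log2 fold change -0.53, SE 0.18, adjusted p = 0.0477), where 6.67% of all genes were higher and 5.03% lower. Pcna (-0.18), Mcm5 (0.02), Mki67 (0.10), Top2a (0.12) and Ccnb1 (-0.42) were not called. DESeq2 did not call Ccne1, and both edgeR calls were lost when replicate 2 of mock or replicate 1 or 3 of the negative pool was left out, and that of Ccne1 also without replicate 3 of mock or replicate 2 of the negative pool. The negative pool also raised Cdkn1a, from 86.2, 85.1 and 80.02 to 166, 150.1 and 166 CPM (log2 fold change 0.94, SE 0.16, adjusted p = 0.000124), and lowered E2f1 (log2 fold change -0.42, SE 0.10, adjusted p = 0.00715) and was taken as the reference for the other pools.

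Each siRNA pool lowered its target. Set to the mean of the negative pool, E2f1 was at 25.2% ± 4.05 (SD, n = 3) with its own pool and 60.4% ± 2.01 with the combined pool. Myc was at 38.0% ± 8.01 and 39.6% ± 3.20, Pparg at 21.9% ± 2.58 and 28.3% ± 2.25, and Stat6 at 27.3% ± 5.79 and 54.0% ± 4.82. Each library of the combined pool thus had more E2f1, Pparg and Stat6 than any library of the matching single pool, and the Myc values overlapped. Knockdown of Myc lowered Pcna and 4 of the 6 genes of the MCM ring. Of the 27 replication genes, 8 were lower and 1 higher than with the negative pool, where 15.6% of all genes were lower and 13.9% higher. The lower share was 29.6%, and the median log2 fold change over the list was -0.25. Pcna had 91.3, 98.4 and 95.3 CPM with the negative pool and 61.97, 68.5 and 62.1 CPM with the Myc pool (log2 fold change -0.56, SE 0.08, adjusted p = 1.51e-06). Mcm5 had 12.8, 15.7 and 14.9 and 9.37, 12.1 and 11.2 CPM (log2 fold change -0.41, SE 0.15, adjusted p = 0.0315). Mcm6 had 38.3, 40.4 and 41.1 and 30.7, 29.8 and 30.5 CPM (log2 fold change -0.40, SE 0.08, adjusted p = 0.000495). In none of these genes did the groups overlap. Mcm7 (-0.49), Mcm4 (-0.47), Pola1 (-0.47), Uhrf1 (-0.79, adjusted p = 0.0183) and Pole (-0.86, adjusted p = 0.0475) were lower as well. Pold1, the lagging-strand polymerase, went the other way, with 19.3, 21.4 and 18.5 and 23.6, 26.8 and 25.2 CPM (log2 fold change 0.35, SE 0.12, adjusted p = 0.0259). Mcm2 (-0.11, adjusted p = 0.381) and Mcm3 (-0.09, adjusted p = 0.339) and the E cyclin gene Ccne1 (log2 fold change -0.40, SE 0.19, adjusted p = 0.121) were not called. Without replicate 1 of the Myc pool, 5 replication genes were lower.

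Myc knockdown also lowered cyclins and checkpoint genes of mitosis. Of 15 mitosis genes, 6 (40%) were lower and 1 (6.67%) higher, against 15.6% and 13.9% of all genes, with a median log2 fold change of -0.66, and their sum was 73.8, 85.8 and 79.2 CPM with the negative and 55.95, 57.2 and 54.2 CPM with the Myc pool. Top2a had 14.5, 14.7 and 14.9 and 7.15, 8.49 and 5.96 CPM (log2 fold change -1.02, SE 0.25, adjusted p = 0.00252). Ccna2, the cyclin of S and G2 phase, had 2.65, 4.07 and 3.15 and 1.88, 1.27 and 1.18 CPM (log2 fold change -1.17, SE 0.31, adjusted p = 0.00461), and Cdc20 3.07, 4.34 and 2.52 and 1.63, 1.63 and 0.993 CPM (log2 fold change -1.19, SE 0.30, adjusted p = 0.00281). All libraries of the Myc pool lay below all those of the negative pool in these 3 genes. Bub1 (-1.13), Ccnb2 (-1.04) and Aurkb (-0.76) were also lower, while Bub1b was higher (log2 fold change 0.49, SE 0.18, adjusted p = 0.0325), with 6.08, 7.74 and 6.23 and 9.32, 8.13 and 10.8 CPM. Against mock M2-like macrophages in place of the negative pool, the log2 fold change of Bub1b was -0.04. Mki67 (log2 fold change -0.49, SE 0.25, adjusted p = 0.149) and Ccnb1 (log2 fold change 0.50, SE 0.36, adjusted p = 0.322) did not pass the test, although each Mki67 value with the Myc pool was below those with the negative pool. The mesothelial and fibroblast markers summed to 263, 379.5 and 368 CPM with the negative and 222, 242 and 317 CPM with the Myc pool, ranges that overlap, and 2 of the 6 markers tested were lower. Leaving out 1 library at a time gave 4 to 5 lower mitosis genes. Requiring at least 10 counts in every sample left 2 lower mitosis genes, and a fit of these 2 groups alone gave 12.

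With the combined pool, all 6 replication genes that were called (22.2% of the list) were lower, where 13.9% of all genes were lower and 12.5% higher. These were Pcna, with 61.1, 63.1 and 59.0 CPM (log2 fold change -0.64, SE 0.08, adjusted p = 2.71e-07), Mcm5, with 9.66, 11.8 and 8.58 CPM (log2 fold change -0.53, SE 0.15, adjusted p = 0.00794), Mcm7 (-0.42), Pola1 (-0.41), Mcm4 (-0.38) and Mcm6 (-0.35). Pcna stood lower in every library of the combined pool than in any library of the negative pool. Ccne1 was not called (log2 fold change -0.34, SE 0.19, adjusted p = 0.211). Of the mitosis genes 5 (33.3%) were lower and 1 (6.67%) higher. Ccnb2 had 2.65, 4.402 and 2.92 CPM with the negative and 1.14, 1.41 and 1.703 CPM with the combined pool (log2 fold change -1.21, SE 0.28, adjusted p = 0.00124), Cdc20 had 1.91, 1.96 and 1.58 CPM (log2 fold change -0.85, SE 0.29, adjusted p = 0.0305) and Top2a 6.48, 7.66 and 10.8 CPM (log2 fold change -0.82, SE 0.25, adjusted p = 0.0151). Aurkb (-0.71) and Aurka (-0.68), the kinases of the chromosomes and of the spindle poles, were lower and Bub1b higher (0.49, or -0.05 against mock). Mki67 (-0.34, adjusted p = 0.348) and Ccnb1 (0.40, adjusted p = 0.462) were not called. The lower mitosis count was 1 without replicate 1 and 2 without replicate 2 of the combined pool, and 2 without replicate 2 of the negative pool, so that it rests on few libraries, whereas the lower replication count stayed between 4 and 6.

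For the pools against E2f1, Pparg and Stat6 no member passed the test. With the E2f1 pool edgeR and DESeq2 called 0 of 42 members, where 0.91% of all genes were called, and 2 replication genes and 1 mitosis gene had an unadjusted p-value under 0.05. Pcna had 88.3, 85.5 and 88.7 CPM, below each library of the negative pool by a small margin (log2 fold change -0.12, SE 0.08, adjusted p = 0.637), Mcm5 14.0, 12.2 and 12.7 CPM (log2 fold change -0.16, SE 0.15, adjusted p = 0.789), and Top2a 10.8, 13.7 and 14.3 CPM (log2 fold change -0.19, SE 0.24, adjusted p = 0.869). Ccne1, a known E2F target whose promoter window held no E2F letters, had 5.201, 5.83 and 5.02 CPM (log2 fold change 0.13, SE 0.19, adjusted p = 0.891). Mki67 (log2 fold change -0.43, SE 0.26, adjusted p = 0.594) and Ccnb1 (log2 fold change -0.34, SE 0.40, adjusted p = 0.85) were not called either. Against mock in place of the negative pool, 3 replication genes were called with the E2f1 pool. The share of all genes called against mock is not given here. The negative pool against mock already had 6.67% of all genes higher and 5.03% lower. This count is therefore not read as a result on the members. For Pparg and Stat6 both tools called 0 members (5.74% and 1.51% of all genes were called), and 2 and 4 members had an unadjusted p-value under 0.05. The mitosis sums were 72.7, 102 and 84.4 CPM with the Pparg and 73.9, 98.1 and 98.5 CPM with the Stat6 pool. Pcna was -0.11 (adjusted p = 0.458) and -0.07 (adjusted p = 0.775), Mcm5 -0.01 (adjusted p = 0.985) and 0.00 (adjusted p = 0.999), Ccne1 -0.09 (adjusted p = 0.857) and -0.35 (adjusted p = 0.508) on the log2 scale. For Top2a the values were 0.02 (adjusted p = 0.984) and 0.12 (adjusted p = 0.896), for Mki67 0.33 (adjusted p = 0.514) and 0.30 (adjusted p = 0.7), and for Ccnb1 0.07 (adjusted p = 0.95) and 0.47 (adjusted p = 0.678). Without replicate 2 of the Pparg pool, 1 replication gene was called.

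The pools were also set directly against each other. With the E2f1 pool, 7 replication genes were higher and 1 lower than with the Myc pool, where 13.5% of all genes were higher and 12.5% lower. Prim1 (log2 fold change 0.55, SE 0.12, adjusted p = 0.000699), Pcna (log2 fold change 0.45, SE 0.08, adjusted p = 6.06e-05), Pola1 (0.48), Ccne1 (0.52, adjusted p = 0.0415), Uhrf1 (0.70), Mcm4 (0.39) and Mcm7 (0.30) were higher and Pold1 (-0.35) lower. Top2a (log2 fold change 0.83, SE 0.26, adjusted p = 0.0152) and Tpx2 (log2 fold change 0.41, SE 0.14, adjusted p = 0.0302) were the higher mitosis genes, and Mcm5 (0.25), Mki67 (0.06) and Ccnb1 (-0.84) were not called. The count of 7 fell to 3 without replicate 3 of the E2f1 pool and to 4 without its replicate 2 or without replicate 1 or 3 of the Myc pool. The count of 2 fell to 0 without replicate 3 of either pool and to 1 without replicate 1 of the E2f1 pool or replicate 1 or 2 of the Myc pool. Between the combined and the E2f1 pool, Pcna (log2 fold change -0.52, SE 0.08, adjusted p = 9.11e-06), Pola1 (-0.43) and Mcm4 (-0.30) were lower with the combined pool (11.3% of all genes lower and 10.3% higher) and no mitosis gene was called (21.6% of all genes, 4 at an unadjusted p-value under 0.05, and 0 by DESeq2). There Mcm5 (-0.37), Ccne1 (-0.46), Mki67 (0.09), Top2a (-0.63) and Ccnb1 (0.74) were not called. That count of 3 fell to 1 without replicate 3 of the E2f1 pool or replicate 1 of the combined pool, and without replicate 3 of the combined pool 2 mitosis genes were called. Between the combined and the Myc pool, edgeR and DESeq2 called 0 members, with 1 at an unadjusted p-value under 0.05 and 0.0494% of all genes called. Pcna differed there by -0.07 (SE 0.08), Mcm5 by -0.12 (SE 0.15) and Top2a by 0.20 (SE 0.26) on the log2 scale, and Ccne1 (0.06), Mki67 (0.15) and Ccnb1 (-0.10) were not called either.

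**Figure D5:**
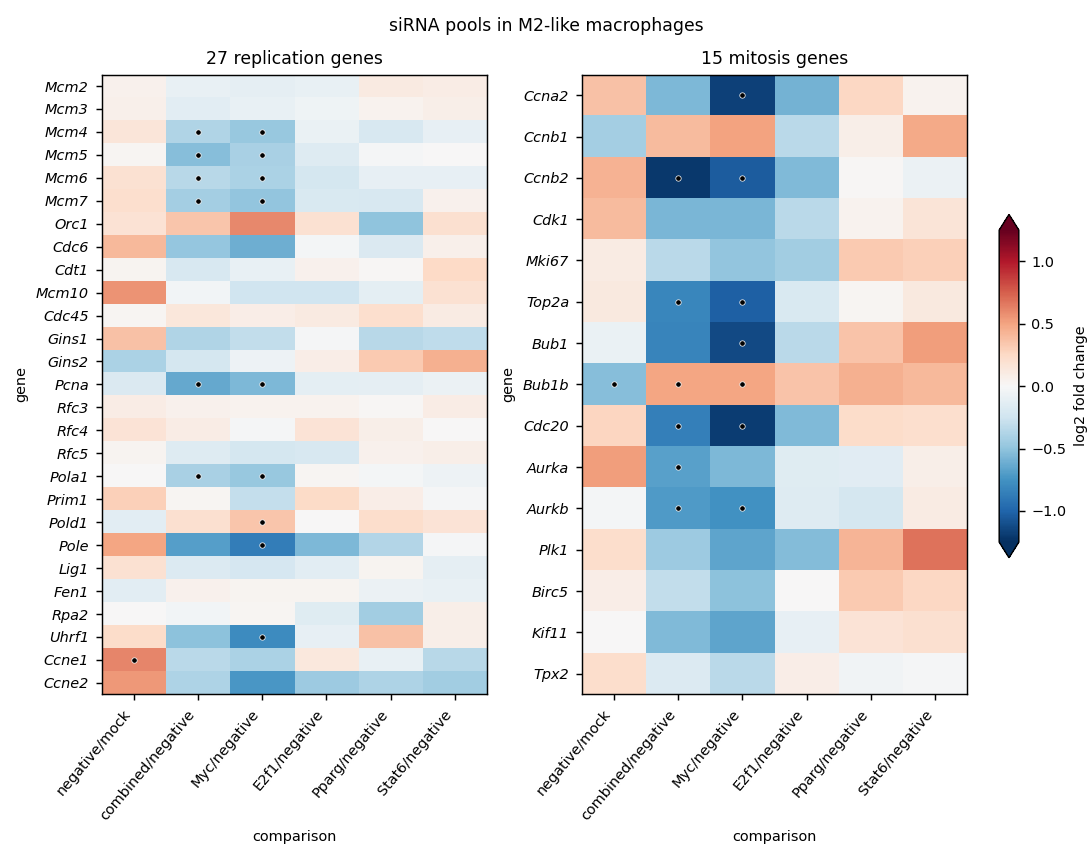
Log2 fold change (colour) of the 27 replication genes (left) and the 15 mitosis genes (right, rows) with the negative pool against mock and with the combined, Myc, E2f1, Pparg and Stat6 pools against the negative pool (columns), all in M2-like macrophages. A black dot marks an adjusted p-value under 0.05 (edgeR). The dots stand in the combined column (6 replication and 6 mitosis genes), the Myc column (9 and 7) and the negative column (1 and 1), and there are none for E2f1, Pparg and Stat6.

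Other genes of the pathway were read from the same fits. With the Myc pool, 25 of 63 other mitosis genes (39.7%) were lower and 2 (3.17%) higher, against 15.6% and 13.9% of all genes. Among the lower ones were Hmmr (-1.70 (SE 0.39)), Cenpf (-1.70 (SE 0.45)) and Nusap1 (-1.61 (SE 0.43)), which act on the spindle and the kinetochore. With the combined pool 11 (17.5%) were lower and 2 (3.17%) higher, against 13.9% and 12.5% of all genes, led by the microtubule regulator Stmn1 (-1.26 (SE 0.27)). Of 42 other replication genes, 4 (9.52%) were lower and 3 (7.14%) higher with the Myc pool, both shares below those of all genes, and the lower ones included both subunits of ribonucleotide reductase, Rrm1 (-0.55 (SE 0.08)) and Rrm2 (-0.93 (SE 0.34)). With the combined pool 5 (11.9%) were lower and 3 (7.14%) higher. Cdkn1a had 166, 150.1 and 166 CPM with the negative, 246, 224 and 312 CPM with the Myc (log2 fold change 0.70, SE 0.16, adjusted p = 0.00116) and 293, 213 and 341 CPM with the combined pool (log2 fold change 0.81, SE 0.16, adjusted p = 0.00025). Every library of these 2 pools lay above those of the negative pool. Ccnd1 had 6.38, 9.805 and 8.18, 4.19, 5.13 and 4.28 and 3.56, 4.56 and 6.02 CPM, with log2 fold changes of -0.83 (SE 0.25) and -0.78 (SE 0.25). With the E2f1 pool, edgeR called E2f1 itself and 0 genes of the other replication, mitosis and G1 lists, in which 2, 4 and 5 genes had an unadjusted p-value under 0.05.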

How the data were processed

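RNA-seq libraries of mouse peritoneal macrophages, 18 single-end (technical replicates of 9 samples) and 36 paired-end, were analysed. The authors trimmed reads (Trimmomatic), aligned them to GRCm38/mm10 (TopHat2 per the labels) and deposited raw read counts per Ensembl gene (featureCounts). Versions, annotation release and strand setting are not given in the sources used here. Symbols came from GENCODE M21 and matched 37607 of 39179 identifiers.

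Technical replicates were summed. Counts on genes ranged from 13421854 to 29880494 per library. Each experiment was fitted with 1 coefficient per condition by edgeR's quasi-likelihood test (edgeR 4.0.16 in R 4.3.3, TMM scaling, filterByExpr with a minimum count of 10 and a minimum total of 15), with Benjamini-Hochberg adjusted p-values over all genes tested and a threshold of 0.05. CPM were scaled by the TMM-adjusted library size, and each SE was derived from the log2 fold change and its F statistic. The fits were tested on simulated data. Knockdowns were compared with the negative siRNA pool.

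The 42 members and all lists were chosen with earlier results of these data known. Every comparison gives Mcm5, Pcna, Ccne1, Mki67, Top2a and Ccnb1, up to 3 called members per list with the largest change and no overlap of samples, and called members against the direction of their list. In the polarization experiment samples of 1 mouse deviated together, with the pairing taken from the labels. The median r was 0.211 over 9 pairs, from 0.0973 to 0.243, against -0.112 between mice. The value between mice is tied to the one within mice, since deviations were taken from the condition means. Alternatives were DESeq2 1.42.0, RLE size factors, other filters, a fold change threshold, technical replicates kept apart, a replicate block, mock as the reference, fits of the compared groups alone and leaving out each replicate. Promoter windows came from RefSeq. Python 3.11.15, NumPy 2.4.6, pandas 2.3.3 and matplotlib 3.10.9 were used.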

Additional observations from a re-analysis of the deposited data

Results flagged for a closer look

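The change of M1-like against M0 macrophages differed between the experiments for 27 of 42 members by the interaction term of 1 edgeR fit over both, a test chosen after the data were seen (adjusted p under 0.05, against 49.0% of all genes). The values are log2 fold changes without transfection in the reprogramming experiment minus those at 24 h in the polarization experiment. Among replication genes the difference was positive for Mcm2 (1.92), Pola1 (1.32), Cdc45 (1.13), Mcm3 (1.13), Prim1 (1.06), Mcm6 (1.02), Gins1 (0.98), Rfc4 (0.67), Pold1 (0.57) and Cdt1 (0.40). It was negative for Mcm10 (-2.27), Ccne1 (-2.07), Pole (-1.73), Uhrf1 (-1.38), Gins2 (-1.21), Pcna (-0.95), Mcm5 (-0.75), Rfc3 (-0.71) and Rpa2 (-0.54). Of the mitosis genes, Top2a (2.44), Aurkb (1.88), Bub1b (1.75) and Cdk1 (1.37) had positive and Tpx2 (-1.93), Mki67 (-1.45), Bub1 (-1.41) and Ccnb2 (-1.40) negative differences. Mcm2 and Pola1 were called lower at 24 h and higher without transfection in the reprogramming experiment, and Mcm10 and Gins2 the other way round. After mock treatment, Pola1 (0.39) was called higher and Mcm10 (-1.70) and Gins2 (-0.42) lower, and Mcm2 was not called (log2 fold change -0.10, adjusted p = 0.332). The harvest time of the untransfected libraries is not given separately, and any difference in time, read type and experiment cannot be told apart here. The 3 samples per group were too few to test single samples as outliers.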

How the results depend on the processing

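Reads limit the mitosis genes most, with down to 2 reads per library in M1-like macrophages. Under the alternatives, 573 counts of called members stayed within 1.5 times the reported count and 107 did not. RLE size factors moved none of the counts beyond that. In M0, M1-like and M2-like comparisons, a threshold at a log2 fold change of 1 in either direction left 2 higher and 5 lower replication genes of M1-like against M0 at 24 h, 1 and 6 against M2-like, and 0 higher replication and 0 higher mitosis genes of M2-like against M0. It left 2 higher and 3 lower replication genes of untransfected M1-like against M0, 2 and 3 with 6 lower mitosis genes against M2-like, and 0 lower replication and 2 higher mitosis genes of M2-like against M0. After mock treatment it left 1 and 4 replication genes of M1-like against M0, 2 and 3 with 5 lower mitosis genes against M2-like, and 0 and 0 of M2-like against M0. It left 0 lower replication genes of mock against untransfected M0, 0 and 0 of the negative pool against mock, 0 replication and 1 mitosis gene with the combined pool, 0 replication genes with the Myc pool, 0 and 0 of E2f1 against Myc and 0 of combined against E2f1. With at least 10 counts in every sample, which tests fewer genes, the lower mitosis genes of M1-like macrophages were 5 at 24 h, 1 untransfected and 4 mock against M0 and 4 and 4 against M2-like, the higher ones of untransfected M2-like 1 and of mock M0 0, and the lower ones 3 with the combined and 2 with the Myc pool, and 1 replication gene was called with the Pparg pool. DESeq2 called 3 lower replication genes of untransfected M2-like against M0, 0 of mock M2-like against M0 and 0 higher ones with the negative pool. With no filter on low counts, 0 replication genes were called in mock M2-like against M0, 1 lower replication and 2 higher mitosis genes in mock against untransfected M0, and 1 mitosis gene in combined against E2f1. With only the compared groups in the fit, 0 replication and 0 mitosis genes were called in mock M2-like against M0, 1 lower replication gene in mock against untransfected M0, 0 mitosis genes with the negative pool, 12 lower mitosis genes with the Myc pool, and 1 replication and 1 mitosis gene in combined against E2f1. Technical replicates as separate samples gave 2 higher mitosis genes of M2-like against M0 at 24 h. With mock in place of the negative pool as the reference, 3 mitosis genes were lower with the combined pool, 3 replication genes were called with the E2f1, 3 with the Pparg and 2 with the Stat6 pool, 1 mitosis gene with the Stat6 pool, and Bub1b turned to -0.05 with the combined and -0.04 with the Myc pool. The counts against mock are given without the share of all genes, and they include any effect of siRNA without a target. For other causes than those named, the cause was not tested.

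Leaving out 1 library at a time gave 0 to 2 mitosis and 3 to 6 replication genes of E2f1 against Myc, 5 to 8 lower replication genes with the Myc pool, 0 to 1 with the Pparg pool, 0 to 2 mitosis and 1 to 3 replication genes of combined against E2f1 and 1 to 4 mitosis genes with the combined pool. It gave 0 to 1 mitosis and 1 to 2 replication genes of mock against untransfected M0, 0 to 1 and 0 to 1 with the negative pool, 3 to 6 higher replication genes of M2-like against M0 at 24 h, 5 to 9 lower mitosis genes of mock M1-like against M0, 0 to 1 and 0 to 1 of mock M2-like against M0, and 2 to 5 mitosis and 2 to 5 replication genes of untransfected M2-like against M0. A replicate block gave 2 higher mitosis genes of mock against untransfected M0, 1 replication gene with the Pparg pool and 2 mitosis genes of combined against E2f1, and moved no other count of called members beyond 1.5 times. In the polarization experiment the block is the mouse. In the reprogramming experiment libraries share a number only. The deviations of 115 of 198 same-numbered pairs correlated above 0.1 (median r 0.12, from -0.10 to 0.39), against 3 of 396 differently numbered pairs (median r -0.057). Deviations were taken from the mean of each condition, so that the values of differently numbered pairs are tied to those of same-numbered ones. They are thus no separate evidence. Same-numbered libraries tended to deviate together, but the labels do not say what they share. The numbers were not taken to pair the samples in the main fits.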
